A study of Homo sapiens with 5 samples.

Results

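The interferon-stimulated genes are the genes that cells switch on after an interferon binds its receptor. A list of 44 of them was followed across 5 human exon arrays (Affymetrix), 1 for each RNA sample from cultured lung cancer cells. A gene was measured by an array feature annotated with its symbol alone, and by the brightest such feature where a gene had several. By this rule 41 of the 44 genes were measured, out of 14232 measured genes in all. STAT2, USP18 and GBP1 had no feature of their own and were not analysed here.

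In the textbook account, viral nucleic acids are sensed inside the cell, interferons are secreted, and their receptors act through JAK kinases. The transcription factor complex ISGF3, which contains IRF9, then binds an interferon-stimulated response element (ISRE) in the promoters of its targets. The induced proteins degrade viral RNA, block translation or trap virus particles, and tumour cells can express some of them without infection.

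A549, an established line from a lung adenocarcinoma, has lost function of the tumour suppressor kinase LKB1. Per the submitters its NEDD9, a focal adhesion scaffold protein, is raised. Its cells were profiled with NEDD9 knockdown by short hairpin 1 or short hairpin 2 (1 array each, treated as 2 replicates of knockdown) and as a control (1 array). CRL-5907, whose LKB1 is wild-type and whose NEDD9 is low per the submitters' design text, was profiled with NEDD9 overexpression (1 array) and as a control (1 array). Neither the construct of the control cells, nor the duration of any manipulation, nor whether lines were clones or arrays came from separate cultures is stated in the labels. Values are log2 expression levels after RMA normalisation. The single control of each line and the single overexpression array have no replicate, so only the difference between the hairpins gives a spread.

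NEDD9 followed the labels, at 8.35 and 8.52 with the hairpins against 8.94 on the A549 control, and at 9.49 with overexpression against 4.66 on the CRL-5907 control. The medians of the 5 arrays over named features ran from 5.69 to 5.85. Levels below an array's median were not shown to exceed background, and differences from them may understate the true fold. All 5 epithelial markers (KRT8, KRT18, KRT19, EPCAM, CDH1) lay above the median in both lines, while the surfactant genes SFTPB and SFTPC did not. PTPRC, which defines leukocytes, was at 1.72 on all 5 arrays. Between the hairpin arrays the SD of a gene's difference was 0.26 at a mean level of 3.63, 0.17 at 5.72 and 0.13 at 10.01, which serves below as the size of a difference between arrays of like cells.

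The promoters of 37 of the 44 genes were matched in a RefSeq table (GRCh38.p14, 250 bases before to 50 after each start). The core of the ISRE, GAAA and GAAA around 2 bases of any kind, was searched on both strands. It was found in a window of 26 of these 37 genes (70.3%), against 4.38% of the 27305 genes in the table. The gamma-activated site TTCNNNGAA, the element named for the response to interferon gamma, was found for 12 of the 37 (32.4%), against 9.38%, and in 6 of the 14 windows that held it a match overlapped an ISRE match. Below are the first windows of IFI27, IFI6 and OAS3, which had ISRE matches and were over 1.5-fold higher with overexpression, with the ISRE matches in capitals. IFI16 and HERC6 were over 1.5-fold higher too, but held no ISRE match in a listed window and are not shown. The window of CXCL11, the gene furthest from control with knockdown, follows and held no ISRE match, so its gamma-activated site matches are in capitals.

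IFI27 promoter, chr14:94110486-94110785, plus strand: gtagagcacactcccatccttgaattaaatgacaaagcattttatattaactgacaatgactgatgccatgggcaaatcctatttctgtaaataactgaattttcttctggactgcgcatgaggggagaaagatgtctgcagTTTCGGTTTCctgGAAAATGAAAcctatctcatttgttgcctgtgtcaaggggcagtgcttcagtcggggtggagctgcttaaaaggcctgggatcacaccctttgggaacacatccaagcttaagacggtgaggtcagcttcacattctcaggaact
IFI6 promoter, chr1:27672143-27672442, minus strand: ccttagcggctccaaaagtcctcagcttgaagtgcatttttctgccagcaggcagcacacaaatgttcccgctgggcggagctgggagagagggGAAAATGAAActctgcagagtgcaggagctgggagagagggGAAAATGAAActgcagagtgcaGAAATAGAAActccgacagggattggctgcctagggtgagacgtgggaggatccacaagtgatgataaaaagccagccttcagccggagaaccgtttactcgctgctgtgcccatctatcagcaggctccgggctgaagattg
OAS3 promoter, chr12:112938224-112938523, plus strand: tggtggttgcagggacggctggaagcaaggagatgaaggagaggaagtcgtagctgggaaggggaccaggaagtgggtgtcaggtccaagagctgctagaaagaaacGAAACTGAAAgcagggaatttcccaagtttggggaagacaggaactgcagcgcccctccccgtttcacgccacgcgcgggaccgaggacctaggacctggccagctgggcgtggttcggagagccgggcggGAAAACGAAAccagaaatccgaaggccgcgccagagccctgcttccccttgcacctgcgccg
CXCL11 promoter, chr4:76036021-76036320, minus strand: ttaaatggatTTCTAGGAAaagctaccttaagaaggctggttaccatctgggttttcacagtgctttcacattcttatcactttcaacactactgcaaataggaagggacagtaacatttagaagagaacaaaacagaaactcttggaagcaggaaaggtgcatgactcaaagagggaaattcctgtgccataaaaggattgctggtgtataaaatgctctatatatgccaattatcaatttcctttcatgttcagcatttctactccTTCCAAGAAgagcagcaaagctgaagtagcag

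IFI27 held 2 ISRE matches, IFI6 held 3 and OAS3 held 2. IFI27 has a second listed start whose window holds the same matches. PARP9 and DTX3L are divergent neighbours whose listed windows overlap, so that they share a single ISRE match. A match of letters is not evidence of binding in these cells.

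**Figure D1:**
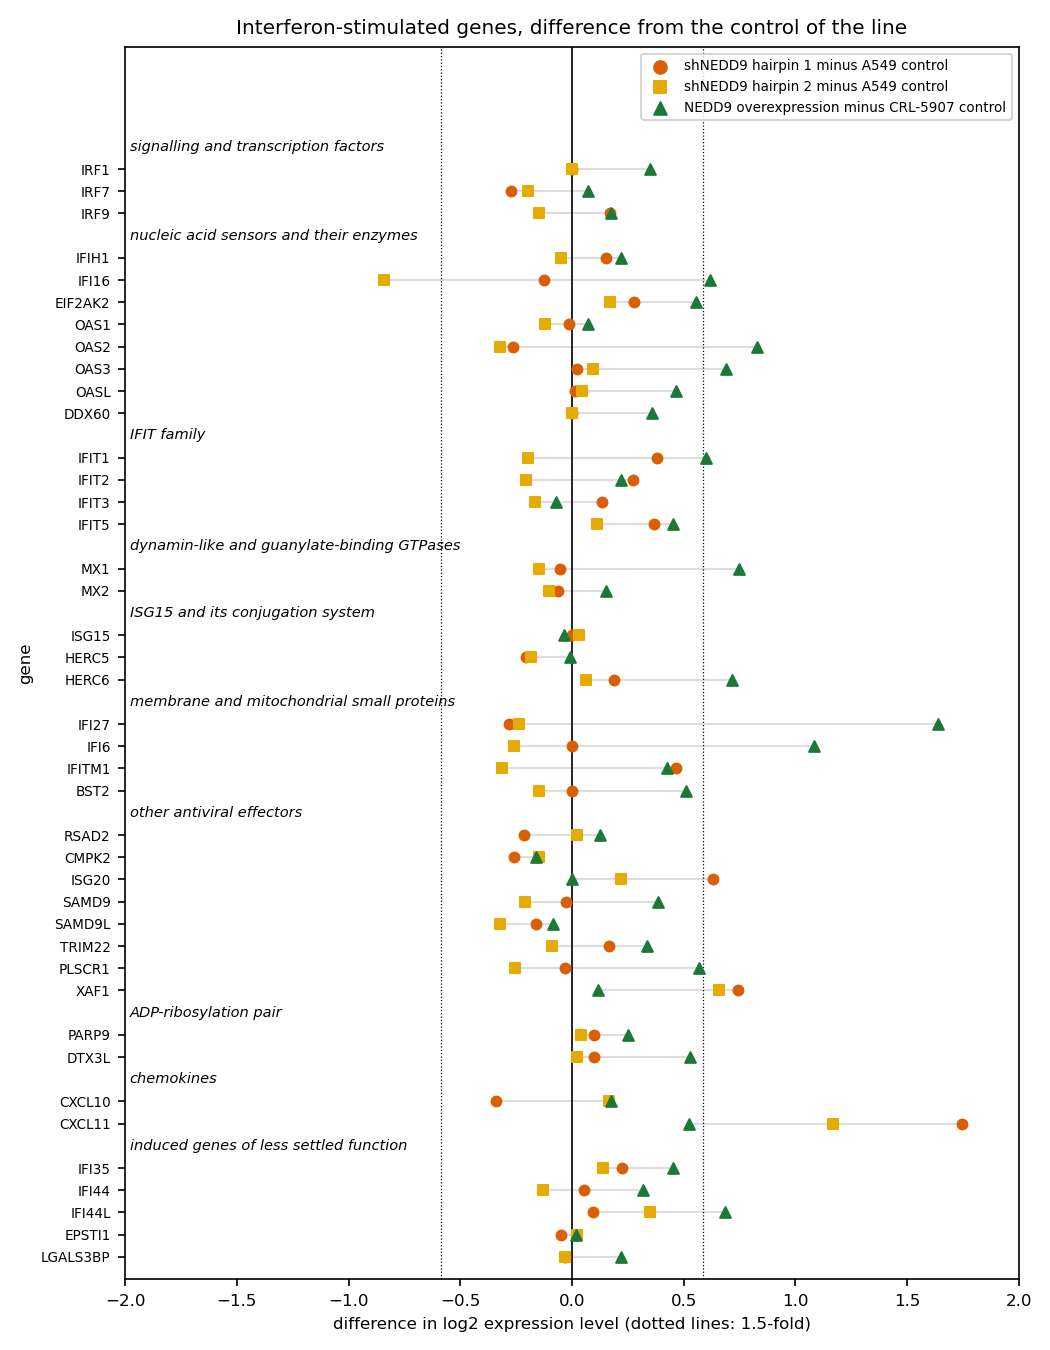
Log2 difference of each of the 41 measured genes (rows, grouped by role) from the control array of its line: circles hairpin 1, squares hairpin 2, triangles overexpression. Triangles lie right of 0 for 35 of the 41 genes, led by IFI27 at 1.64, while circles and squares scatter on both sides of 0 apart from CXCL11 and XAF1.

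With NEDD9 overexpression in CRL-5907 the interferon-stimulated genes were higher as a group. Of the 41 measured genes 35 were higher than on the CRL-5907 control, 5 were lower and IFI27 led at 3.11-fold. Over all 14232 genes 48.1% were higher and 42.3% lower. The median log2 difference was 0.35 over the 41 genes, with quartiles of 0.13 and 0.56, against a median of 0.00 and quartiles of -0.10 and 0.15 over all genes. A gene passed the level filter when its brighter array of the comparison exceeded that array's median, so the overexpression array alone could admit it. Of the 22 genes that passed, 6 were higher by 1.5-fold or more, where 3.5% of all genes were, and 0 were 1.5-fold lower, where 0.851% were. Of these 6, IFI27, OAS2 and MX1 passed by overexpression alone, at 5.43, 5.27 and 5.47 on the control, whose median was 5.69. IFI16, OAS3 and IFI6 exceeded the median on both arrays. Without the level filter 9 of 41 were 1.5-fold higher, against 2.9%. With 1 array in each condition these differences were not tested, and in bulk RNA more expressing cells and more RNA per cell cannot be told apart.

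**Figure D2:**
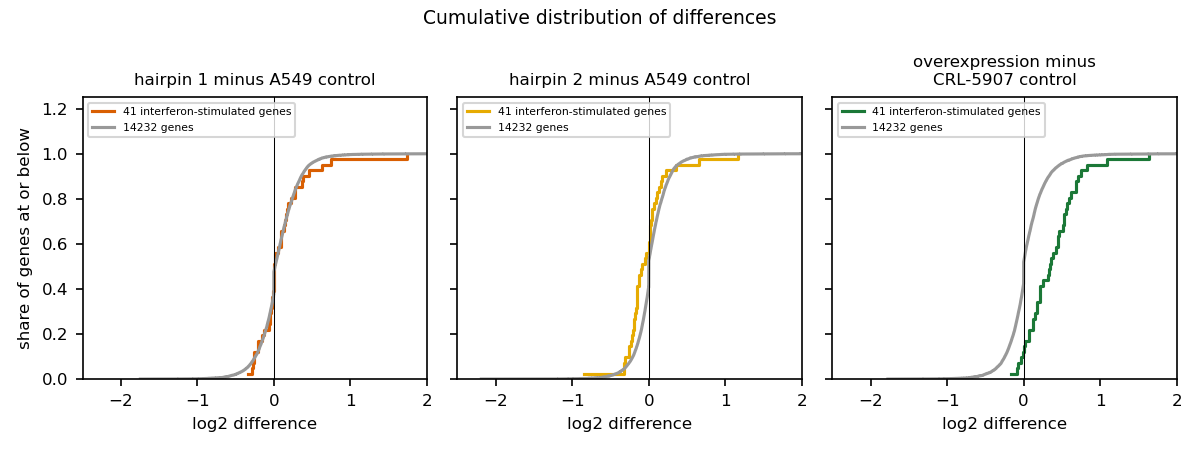
Cumulative share of genes (vertical axis) at or below a log2 difference (horizontal axis) for hairpin 1, hairpin 2 and overexpression, each against the control of its line; coloured steps are the 41 interferon-stimulated genes and grey steps all 14232 genes. Only with overexpression does the coloured curve lie right of the grey one over most of its length, with medians of 0.35 and 0.00.

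The largest differences belonged to IFI27 and IFI6, from the group of small membrane and mitochondrial proteins. IFI27, a small hydrophobic protein of mitochondrial and nuclear membranes, had a level of 7.07 with overexpression against 5.43 on the CRL-5907 control, a log2 difference of 1.64 that ranked 9th from the top among the 7406 genes above the median level. Its control value lay below the array median. IFI6, a relative of IFI27 that restrains apoptosis, was at 7.64 with overexpression against 6.55 on the control (1.08, rank 38). Both IFI6 values lay above the median of their array. IFITM1, which blocks virus entry at the cell membrane, was at 6.07 against 5.65 (0.43), with the control value below the array median. BST2, or tetherin, which holds budding virions on the cell surface, was at 5.13 against 4.62 (0.51, below the array median on both arrays).

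Among the nucleic acid sensors and their enzymes all 8 were higher with overexpression, with a median of 0.51. OAS2, one of the synthases of oligoadenylates that activate RNase L, was at 6.10 with overexpression against 5.27 on the control (0.83), and its relative OAS3 was at 8.02 against 7.33 (0.69). OAS1, a further synthase, was at 10.13 against 10.06 (0.07), within the spread between arrays of like cells. IFI16, a sensor of DNA in nucleus and cytoplasm, was at 7.66 against 7.04 (0.62). EIF2AK2, the kinase PKR that halts translation on binding double-stranded RNA, was at 6.73 against 6.17 (0.55) and stayed just under 1.5-fold. OASL (0.47), DDX60 (0.36) and IFIH1, the RNA sensor MDA-5 (0.22), lay below the array median on both arrays. DDX60 was at 3.56 with overexpression and at exactly 3.21 on the other 4 arrays.

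The effector GTPase MX1, which blocks nucleocapsids of influenza and other viruses, was at 6.22 with overexpression against 5.47 on the control (0.75), while MX2, below the array median, was at 3.85 against 3.70 (0.15). In the IFIT family, which binds viral RNA, IFIT1 was at 3.93 against 3.33 (0.60), IFIT5 at 5.78 against 5.33 (0.45), IFIT2 at 3.58 against 3.36 (0.22) and IFIT3 at 4.996 against 5.066 (-0.07). Only IFIT5 of these 4 exceeded the array median with overexpression. HERC6 was at 4.90 against 4.19 (0.72) and IFI44L at 4.12 against 3.43 (0.69), both below the array median. These 2 and IFIT1 are the genes that reached 1.5-fold below that level.

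Other members differed less. DTX3L, a ubiquitin ligase, was at 7.43 with overexpression against 6.90 on the control (0.53), and its partner PARP9, an ADP-ribosyltransferase family protein, was at 6.67 against 6.42 (0.25). PLSCR1, a phospholipid scramblase, was at 6.98 against 6.41 (0.57), and IFI35 at 7.39 against 6.93 (0.45). CXCL11 (0.53), SAMD9 (0.38), TRIM22 (0.34), IFI44 (0.32) and LGALS3BP, a secreted glycoprotein (0.22), differed by more than 1 SD of the spread between like arrays. CXCL10 (0.17), RSAD2, the antiviral enzyme viperin (0.13), and EPSTI1 (0.02) differed by less than that SD, as did MX2, IFIT2 and IFIH1 above. ISG15, the ubiquitin-like modifier that is among the most inducible genes of the response, was not: it was at 6.11 with overexpression against 6.14 on the control (-0.04). HERC5, the ligase that attaches ISG15, was at 2.51 against 2.52 (-0.01). CMPK2 (-0.16) and SAMD9L (-0.08) were lower, and like ISG15, HERC5 and IFIT3 by less than 1 SD. ISG20, an RNA exonuclease, had exactly equal values of 6.26 on both arrays, which RMA can assign.

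The transcription factors of the pathway were higher by small amounts. IRF1 was at 6.41 with overexpression against 6.06 on the CRL-5907 control (0.35), or 1.27-fold. IRF9, the DNA-binding subunit of ISGF3, was at 7.34 against 7.17 (0.17), and IRF7, which amplifies interferon transcription, was at 6.58 against 6.51 (0.07). The differences of IRF9 and IRF7 were close to or under the SD of 0.15 and 0.17 between like arrays at their levels.

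Counted against that SD in place of a fold, 18 of the 41 genes were higher with overexpression by over 2 SD, where 9.01% of all genes were, and 0 were lower, where 4.03% were. This count was added after the values were seen. The 18 comprised the 9 genes past 1.5-fold and EIF2AK2, OASL, IFIT5, IFITM1, BST2, PLSCR1, DTX3L, CXCL11 and IFI35. The 25 measured genes with an ISRE match in a listed promoter had a median difference of 0.38, with 21 higher and 6 past 1.5-fold. The 10 with a listed promoter and no match had a median of 0.26, with 8 higher and 2 past 1.5-fold. Without a level filter 2.9% of all genes were 1.5-fold higher. No difference between these sets was tested.

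**Figure D3:**
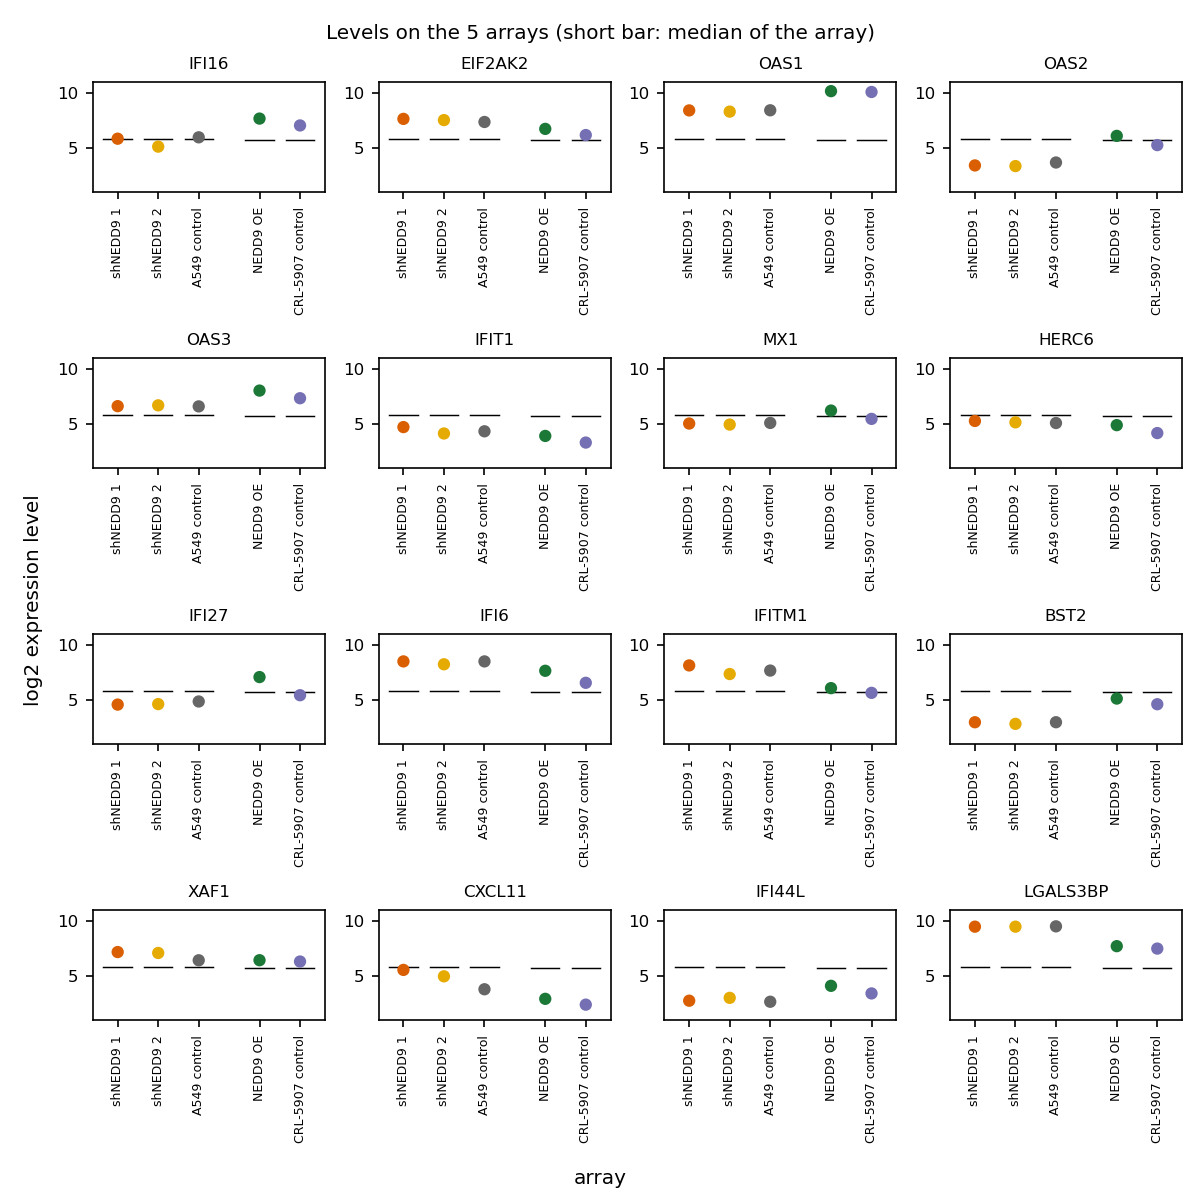
Log2 expression level (vertical axis) of the 16 genes that reached 1.5-fold with both hairpins or with overexpression, or 2-fold between the control lines, on the 5 arrays: hairpin 1, hairpin 2, A549 control, overexpression (OE) and CRL-5907 control. Short bars mark each array's median over named features. IFI27 lies below the bar on every array but the one with overexpression, where it is at 7.07.

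Genes upstream of the response were read from lists of non-members. None of the 9 measured interferon ligand genes exceeded the array median on any array, and IFNB1, the first interferon made in most infected cells, was at 1.96 with overexpression against 2.24 on the control. Below the median, IFNA5 was at 3.13 against 2.53 (0.60) and IFNW1 at 2.36 against 3.08 (-0.72). Of the receptor and signalling genes, 12 of 14 measured were higher with overexpression, where 48.1% of all genes were, and 0 of the 11 above the median level reached 1.5-fold, where 3.5% of all genes did. The receptor chains IFNAR1 (0.18) and IFNAR2 (0.33) and the kinase JAK1 (0.32) were among them. Of the sensors upstream of interferon and their adaptors, kinases and transcription factors, 2 of 12 above the median level reached 1.5-fold, against the same 3.5%. RIGI, the RNA sensor RIG-I, was at 6.72 with overexpression against 5.93 on the control (0.79). CGAS, the DNA sensor, was at 5.963 against 5.202 (0.76), and its control value lay below the array median. STING1, the adaptor of CGAS, went the other way, at 6.18 against 6.70 (-0.52), short of 1.5-fold. In a further list of interferon-induced genes, 34 of 49 measured were higher, against 48.1% of all genes, with a median of 0.09. Of the 32 above the median level 2 reached 1.5-fold, a share near the 3.5% of all genes. These were APOL1, at 7.58 against 6.54 (1.03), and TNFSF10, the death ligand TRAIL, at 6.52 against 5.92 (0.61). JAK2, a receptor-associated kinase (0.59), TLR4, the endotoxin receptor (0.62), and TRIM21, an antibody receptor (0.69), passed 1.5-fold below the median level. The log2 of the summed levels of 4 leukocyte markers was 7.22 with overexpression and 7.21 on the control, with CD14 the highest at 6.96 and 6.91.

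With NEDD9 knockdown in A549 the group had no common direction. Of the 41 genes 12 were higher with both hairpins, 14 were lower with both, 12 differed in opposite directions and 3 had a hairpin value equal to that of the control. Over all genes 39.6% were higher with both and 27.7% lower with both. The median difference was 0.00 with hairpin 1 and -0.09 with hairpin 2, against 0.02 and 0.00 over all genes. Of the 18 genes whose level exceeded the array median, 1 was higher by 1.5-fold or more with both hairpins, where 0.709% of all genes were, and 0 were 1.5-fold lower, where 0.134% were. Without the level filter 2 of 41 were 1.5-fold higher with both, against 0.794%. Both hairpins are compared with the same control array, so an error of that array enters both differences.

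The gene above the median level was XAF1, an interferon-inducible antagonist of the apoptosis inhibitor XIAP. Its level was 7.16 with hairpin 1 and 7.08 with hairpin 2, against 6.42 on the A549 control. Both hairpin arrays were higher than the control, by 0.70 ± 0.06 (SD, n = 2), or 1.67-fold and 1.58-fold. In limma's moderated test over 7473 genes its adjusted p was 0.276 (Benjamini-Hochberg), with 1 residual degree of freedom. Over the whole table limma called 0 of the 7473 genes at an adjusted p under 0.05 (0%). Before adjustment limma put XAF1 alone of the 18 genes under 0.05, as it did 17.5% of all genes. XAF1 was at 6.43 with overexpression against 6.31 on the CRL-5907 control (0.12), under the SD between like arrays.

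The other was CXCL11, a chemokine that attracts T cells through the receptor CXCR3. It was at 5.55 with hairpin 1 and 4.98 with hairpin 2, against 3.81 on the A549 control. All 3 values lay below their array's median, so that CXCL11 was left out of the limma test of genes above that level. It did enter a limma fit without the level filter, which called neither it nor any other gene. The differences of 1.75 and 1.17 correspond to 3.35-fold and 2.25-fold, and the smaller of them ranked 13th among all 14232 genes. CXCL10, a neighbouring gene whose product binds the same receptor, was at 1.78 and 2.28 with the hairpins against 2.12 on the control (-0.34 and 0.16). CXCL9, the third ligand of that receptor, was at 2.47 and 2.47 against 2.53. Of 4 measured leukocyte markers, LYZ was at 5.55 and 5.34 with the hairpins against 3.55 on the control, CD14 was at 6.08 and 5.63 against 6.47, CD3E differed by -0.01 with each hairpin and PTPRC by 0. The log2 of their summed levels was 6.96 and 6.64 against 6.78, and its part in the CXCL11 difference was not tested.

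**Figure D4:**
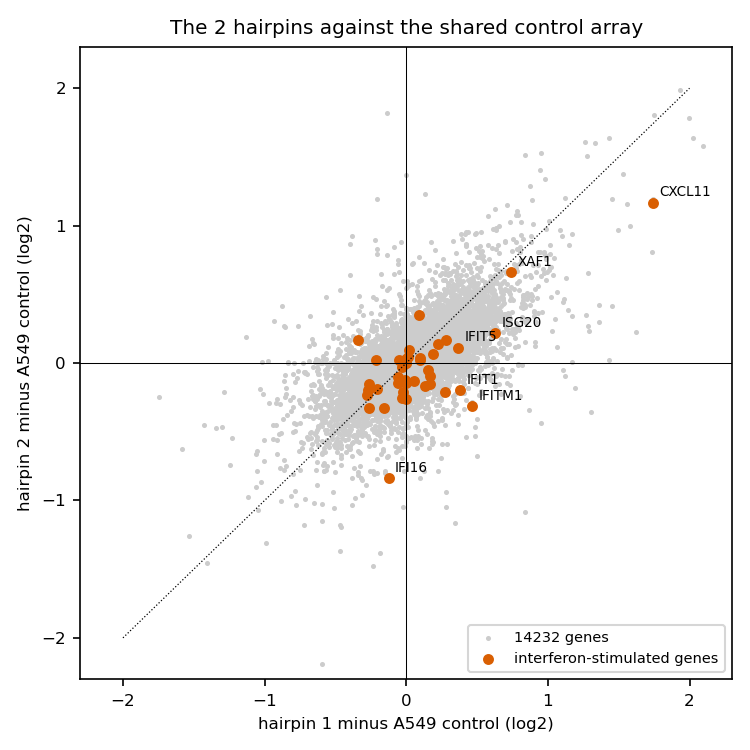
Log2 difference from the A549 control with hairpin 1 (horizontal axis) and hairpin 2 (vertical axis) for the 41 interferon-stimulated genes (orange) among all 14232 genes (grey), with the line of equality dotted. CXCL11 and XAF1 lie far from 0 on both axes, whereas IFITM1 and IFIT1 lie right of 0 and below it, and IFI16 is low with hairpin 2 alone.

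The hairpins differed from each other over this group. The hairpin 1 array was higher than the hairpin 2 array for 27 genes and lower for 11, against 51.5% and 37.3% of all genes, and the median difference of hairpin 1 minus hairpin 2 was 0.09 over the 41 genes and 0.01 over all genes. By over 2 SD, 6 genes were higher with hairpin 1 (14.6%, against 3.77% of all genes) and 1 was higher with hairpin 2 (2.44%, against 2.04%). IFITM1 was at 8.12 with hairpin 1 and 7.34 with hairpin 2, either side of the A549 control at 7.66. IFI16 was at 5.84 and 5.13, against 5.97 on the control, so that its difference of -0.84 rests on hairpin 2. IFIT1 was at 4.73 and 4.15, against 4.35. ISG20 was at 6.23 and 5.82, both above the control at 5.60, and IRF9 at 7.49 and 7.17, against 7.32. CXCL11 and, in the other direction, CXCL10 complete the 7. IFIT2 and IFIT3 had the same order as IFIT1, with differences from the control of 0.27 and 0.13 with hairpin 1 and -0.21 and -0.17 with hairpin 2, while IFIT5 was higher with both (0.37 and 0.11). Whether a hairpin or its array underlies these differences cannot be told apart with 1 array each.

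Of the 9 genes past 1.5-fold with overexpression, 4 were lower with both hairpins (IFI27, OAS2, MX1, IFI16), where 27.7% of all genes were. Another 3 were higher with both (OAS3, HERC6, IFI44L), where 39.6% were. The differences of MX1, OAS3 and HERC6 lay within 1 SD of the hairpin spread, as did those of IFI16 and IFI44L with hairpin 1. IFI27 was at 4.59 and 4.64 with the hairpins against 4.87 on the A549 control (-0.26 ± 0.03, SD, n = 2), all below the array median. OAS2 was at 3.43 and 3.37 against 3.70 (-0.29 ± 0.04), also below it, and MX1 at 5.05 and 4.95 against 5.10 (-0.10 ± 0.07). IFI6 was at 8.48 and 8.22 against 8.48, and OAS3 at 6.61 and 6.69 against 6.59 (0.06 ± 0.05). IRF7 was at 6.21 and 6.28 against 6.48 (-0.23 ± 0.05, limma adjusted p = 0.305, Benjamini-Hochberg). IRF1 had the same value of 5.61 on all 3 A549 arrays. By sign alone, 11 of the 41 genes (26.8%) were higher with overexpression and lower with both hairpins, against 10.1% of all genes, and 11 (26.8%) were higher in all 3, against 24.2%. The parts differed too: 85.4% of the 41 were higher with overexpression and 34.1% lower with both hairpins, against 48.1% and 27.7% of all genes. The joint shares therefore start from unlike parts, and a link between the directions gene by gene was not tested. No interferon-stimulated gene passed 1.5-fold in opposite directions, where 2 of the 6843 genes above the median level in both lines did. The manipulations were unequal in size, since the log2 difference of NEDD9 was -0.59 for hairpin 1, -0.41 for hairpin 2 and 4.83 for overexpression.

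In the pathway lists, 1 of 10 receptor and signalling genes above the median level was 1.5-fold higher with both hairpins, where 0.709% of all genes were. It was the deubiquitinase USP15, at 5.95 and 5.99 against 5.07 on the control, a control value below the array median. IFNAR1 (0.38 and 0.25) and IFNAR2 (0.41 and 0.37) were higher, and SOCS3, an inhibitor of JAK kinases, was lower (-0.21 and -0.39). None of the 8 upstream sensing genes or 28 further interferon-induced genes above that level reached 1.5-fold with both hairpins in either direction, as was so for most genes (0.709% higher and 0.134% lower). Below the median level CD274, the checkpoint ligand PD-L1, was at 3.09 and 3.03 with the hairpins against 2.28 on the control (0.81 and 0.75). RTP4, a receptor transporter protein, was at 4.38 and 3.83 against 4.89 (-0.51 and -1.06), short of 1.5-fold with hairpin 1.

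The A549 and CRL-5907 controls differed in both directions, gene by gene. In A549, 4 of the 19 interferon-stimulated genes above that level were higher by 2-fold or more, where 9.88% of all genes were, and 2 were at least 2-fold lower, where 5% were. Without the level filter 6 of 41 were higher (6.44% of all genes) and 4 lower (3.53%). By sign 18 were higher and 22 lower in A549, where 51.8% and 39.9% of all genes were, and the median difference was -0.03, against 0.01 over all genes. These differences share their control arrays with the knockdown and overexpression differences.

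IFITM1 was at 7.66 on the A549 control against 5.65 on the CRL-5907 control (4.02-fold higher). It passed the level filter by the A549 array alone, since the CRL-5907 median was 5.69. LGALS3BP was at 9.48 against 7.48 (4.02-fold), IFI6 at 8.48 against 6.55 (3.81-fold) and EIF2AK2 at 7.35 against 6.17 (2.26-fold). CXCL11, at 3.81 against 2.42, and IFIT1, at 4.35 against 3.33, were higher below the array median. On the other side, OAS1 was at 8.41 on the A549 control against 10.06 on the CRL-5907 control (-1.65) and IFI16 at 5.97 against 7.04 (-1.07). OAS2, at 3.70 against 5.27 (-1.57), and BST2, at 3.001 against 4.624 (-1.62), were lower and did not pass the median on either control. OAS3 was lower too, at 6.59 against 7.33 (-0.74), but did not reach 2-fold. IFIT5 (0.87) and IFIT2 (0.43) were higher short of 2-fold, while OASL (-0.07) and IFIT3 (0.05) differed by less than the spread between like arrays. Overexpression in CRL-5907 left IFI6, IFITM1 and EIF2AK2 below their A549 control levels, and put IFI27, MX1, OAS2 and OAS3 further above theirs.

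**Figure D5:**
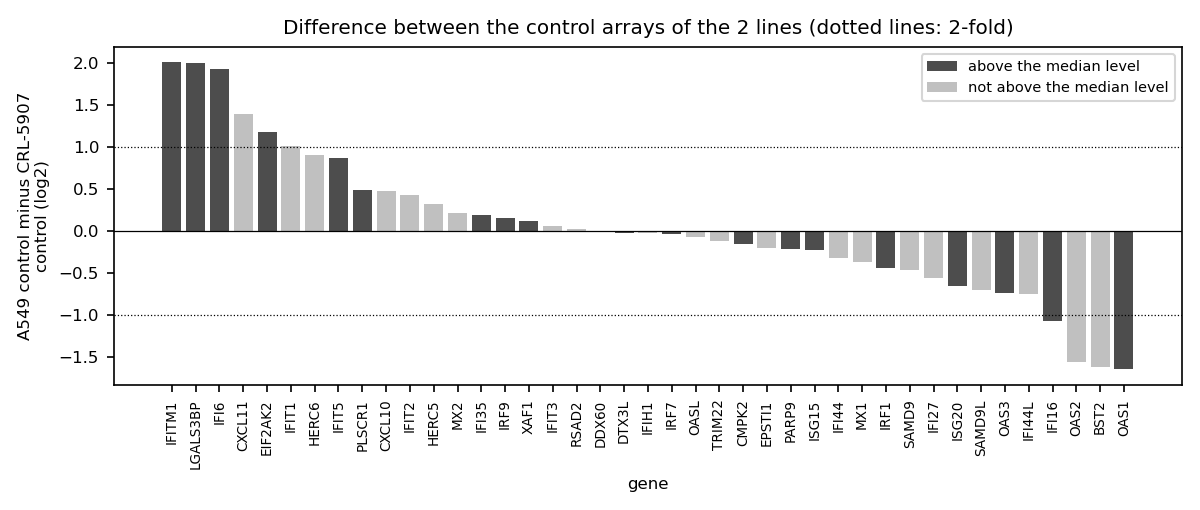
Log2 difference of the A549 control minus the CRL-5907 control (vertical axis) for the 41 genes (horizontal axis), ordered by size; dark bars are genes above the median level. IFITM1, LGALS3BP and IFI6 stand near 2 at the left, and OAS1, BST2 and OAS2 beyond -1.5 at the right.

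In the pathway lists, SLFN5, a Schlafen family gene, was at 8.54 on the A549 control against 3.92 on the CRL-5907 control (4.62). STAT4 was at 6.43 against 4.72 (1.71). The CRL-5907 values of SLFN5 and STAT4 lay below the array median. C1S, a complement protease, was at 8.68 against 11.10 (-2.42). SOCS3 (-1.52), STING1 (-1.27), TAP2, a peptide transporter subunit (-1.24), APOL1 (-1.16) and USP15 (-1.06) were also at least 2-fold lower in A549. The A549 values of STING1, APOL1 and USP15 lay below the array median. TLR4, below the median on both controls, was lower by more than 2-fold too (-1.78). IFNGR1, a chain of the interferon gamma receptor, was higher in A549 (0.80) and IFNGR2, the other chain, lower (-0.77), neither by 2-fold.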

How the data were processed

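Expression was measured on 5 exon arrays. The deposited values are log2 expression levels (0.58 to 13.09), which the authors made by RMA in Affymetrix Power Tools (no version given); the submitters' processing notes name both. The log base was read from the values, and the genome build of the array is not given in the sources used here. Samples were grouped by title. The hairpin 2 description names another gene (NEDD10), and the title was followed. Where nothing says that arrays came from separate cultures, the spread may be technical.

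Of 22011 features 14432 carried 1 gene symbol in the platform annotation, and 14404 of these matched RefSeq by Entrez number. Genes entered fold counts when their brightest array in a comparison exceeded that array's median (7473 genes for knockdown, 7406 for overexpression, 7716 between lines). Knockdown was fitted with limma 3.58.1 in R 4.3.3 (trend, 1 residual and 0.729 prior degrees of freedom, Benjamini-Hochberg over all genes). It takes the hairpins as replicates and assumes that the control varies likewise. Other comparisons have 1 array per condition and were not tested. The spread between hairpins was taken in 20 bins of level and includes true differences between them. The steps were tested on simulated data.

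The genes, lists and rules were chosen with earlier results of these data known. The rule named genes above the array median that reached 1.5-fold (2-fold between lines), up to 5 from each list of non-members, and the pathway transcription factors. Other members were to be named as the furthest of their role. Further members, genes of the lists below that median, and a few more (RTP4, IFNAR1, IFNAR2, JAK1, IFNGR1, IFNGR2, IFNB1, CXCL9, STING1 with overexpression and SOCS3 with knockdown) were chosen after their values were seen. Alternatives were other normalisations, level filters, fold thresholds, the mean of a gene's features, and each hairpin alone.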

Additional observations from a re-analysis of the deposited data

How the results depend on the processing

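No paired analysis was possible, since the labels give no pairing and each line has a single control array. The overexpression result kept its direction in each setting tried: 34 to 36 of the 41 genes were higher, and the median difference was 0.33 to 0.36, with the arrays centred, quantile-normalised again or freed of the trend with level. The count of genes 1.5-fold higher with overexpression was 6 (3.5% of all genes), and 4 to 9 under other normalisations and level filters (2.56% to 4%). At 1.3-fold it was 12 (9.42%), at 2-fold 2 (0.702%), and by 2 SD of the hairpin spread 18 (9.01%). The count 1.5-fold lower was 0 in every setting tried. For knockdown, the count 1.5-fold higher with both hairpins was 1 (0.709% of all genes), and 2 without the level filter (0.794%) or by 2 SD (4.1%). It was 0 at the 75th percentile filter (0.528%) or at 2-fold (0.0669%). With hairpin 1 alone it was 2 (2.57%) and with hairpin 2 alone 1 (1.35%). The count lower was 0 with hairpin 1 alone (0.535%) and 1 with hairpin 2 alone (IFI16, 0.482%). In every setting run, limma called 0 of the interferon-stimulated genes; after a further quantile normalisation the lowest adjusted p among the 18 was 0.0585 and 3 genes were called over the whole table. Between the lines, the count 2-fold lower in A549 was 2 (5% of all genes). It was 4 without the filter (3.53%) or at 1.5-fold (11.1%) and 1 at 3-fold (2.31%). The median between the lines, -0.03, was -0.14 with centred arrays and -0.12 after quantile normalisation, where that over all genes was -0.10 and -0.04. Of 88 recomputed differences of single genes, 86 stayed within 1 SD of the spread and none changed sign. The other 2 were CXCL11 with each hairpin alone (1.17 and 1.75). Part of that count was fixed in advance. No interferon-stimulated gene had several features, so the mean of features repeated the main values. Centring shifted all genes of a comparison by the same amount, under 1 SD, so neither setting could show a change. No setting can replace the missing replicates of the controls and of overexpression, and values below an array's median may be background.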
